A study of Mus musculus with 3 samples.

Results

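Fragments from the 5′ end of the valine transfer RNAs tRNA-Val-AAC, tRNA-Val-CAC and tRNA-Val-TAC were followed in small RNA libraries of sperm, testis and uterus. Members were the read sequences that began at base 1 to 3 of one of the 3 tRNAs, exact or, counted apart, with 1 substitution or 1 deletion of 1 to 3 bases. Exact members were 108 of 1302963 distinct sequences in sperm, 28 of 2592365 in testis and 25 of 526203 in uterus. Of the 110 exact sequences found in any library, 12 were in all 3. Substituted members were 1099, 33 and 22 sequences in sperm, testis and uterus, and deleted members were 189, 3 and 2.

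All RNA came from CD1 mice, untreated as far as the labels say, with 1 library for each of mature sperm released from the cauda epididymis, adult testis and adult uterus. Somatic cells among the sperm were lysed with SDS and Triton X before extraction. Adapters were added to both ends of the small RNA, which was then reverse transcribed, amplified by PCR and sequenced. With 1 library per group there was no replicate check and no test between groups, and every range in brackets is a 95% interval for counting error alone, because PCR copies are not independent molecules. In tissue RNA, fewer cells of a type and less RNA per cell cannot be told apart.

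A tRNA carries an amino acid to the ribosome and reads a codon with the 3 bases of its anticodon, here bases 34 to 36. Cleavage in or beside the anticodon loop gives 5′ tRNA fragments, a major small RNA class of mature mammalian sperm. In tRNAs whose gene has A at base 34, that base is commonly deaminated to inosine, which reverse transcription reads as G. Some methylated bases, such as dimethylguanosine at base 26 and 1-methyladenosine at base 58, disturb reverse transcription and can be read as other bases.

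RefSeq lists 22 nuclear tRNA-Val genes among 430 tRNA entries of GRCm38.p6: 8 for Val-AAC on 4 chromosomes, 11 for Val-CAC on 6 chromosomes and 3 for Val-TAC on 2 chromosomes, with 10 of the 22 on chromosome 13. The mature 5′ sequences that define the members are shown first, with the anticodon, or the G read at base 34, in capitals. The Val-CAC gene is n-TVcac9, the tRNA gene at chr13:23446142-23446214 on the minus strand (GRCm38.p6, from RefSeq), shown whole. The other sequences are the most abundant long reads of the deposited tables that hold the anticodon, with 69 reads for Val-TAC and 181 for the form with G at base 34.
Val-CAC gene: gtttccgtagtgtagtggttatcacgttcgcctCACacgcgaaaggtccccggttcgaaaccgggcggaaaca
Val-TAC, bases 1 to 42: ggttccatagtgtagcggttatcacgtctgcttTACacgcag
Val with G at 34, bases 1 to 42: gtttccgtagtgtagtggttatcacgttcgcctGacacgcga
Positions count from 1 at the 5′ end of the tRNA, with the Val-CAC gene's base first in each substitution. The form with G differed from the Val-CAC gene only by C34G over 43 bases. Val-TAC differed from it at 9 of 44 bases, among them T2G, G7A, T16C and C34T. No read of 40 nt or more held the anticodon AAC unaltered, so the Val-AAC reference was taken as the form with G with base 34 set to A. Val-AAC and Val-CAC then share every read that ends before base 34, and those reads were counted as one set. No GENCODE transcript contained the first 18 bases of the members.

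Sperm held 15690722 reads, testis 23783785 and uterus 15876066. Reads longer than 28 nt were 81.3% of the sperm library and 79.8% of the testis library, but 0.429% of the uterus library. Reads of 34 nt or more were 20.2%, 0.545% and 0.00179% in sperm, testis and uterus. Tissue marker microRNAs were checked for the 10 of 15 markers with a RefSeq sequence. The 4 testis microRNAs summed to 20827 reads in sperm, against 4991 in testis and 159 in uterus, but they did not move together. Most of the sperm sum was miR-184-3p, with 18395, 944 and 159 reads in sperm, testis and uterus. In that order miR-465a-5p had 1496, 217 and 0 reads, miR-202-5p 2, 2492 and 0, and miR-881-3p 934, 1338 and 0. Relative to library size, miR-881-3p was nearly equal in sperm and testis, and miR-202-5p was far lower in sperm. The stromal miR-199a-3p had 376, 687 and 458582 reads in the same order of libraries. The 3 epithelial microRNAs of the miR-200 family summed to 39719 reads in sperm, against 15 in testis and 2714 in uterus, and the 2 leukocyte microRNAs to 112, 1 and 360 reads. The part of other cells' RNA in the sperm values was not tested.

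The fragments that carried the signal were few. The 5 most abundant exact sequences of sperm and the most abundant sequence with A at base 34 are printed below, with base 34 in capitals where the read reaches it. The last is labelled Val-AAC by that letter alone.
Val-CAC, bases 1 to 34: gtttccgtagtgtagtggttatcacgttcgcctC
Val-AAC/CAC, bases 1 to 33: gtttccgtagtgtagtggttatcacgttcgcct
Val-AAC/CAC, bases 1 to 31: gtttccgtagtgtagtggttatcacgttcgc
Val-AAC/CAC, bases 1 to 32: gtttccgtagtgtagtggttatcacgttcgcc
Val-TAC, bases 1 to 34: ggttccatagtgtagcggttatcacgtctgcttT
Val-AAC, bases 1 to 34: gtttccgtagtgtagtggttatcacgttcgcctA
The 34 nt Val-CAC fragment had 28030 reads in sperm, against 29 in testis and 0 in uterus, and made up 30.7% of the exact tRNA-Val 5′ reads of sperm. The 33 nt fragment that Val-AAC and Val-CAC share had 26772 reads in sperm, against 40 in testis and 0 in uterus. The fragments of 31 and 32 nt had 6075 and 5866 reads in sperm, 9 and 28 in testis and 0 in uterus. These sequences end on 4 successive bases up to the first anticodon base. The 34 nt Val-TAC fragment had 4592 reads in sperm, against 2 in testis and 0 in uterus, and the 34 nt fragment with A at its last base 44, 1 and 0 reads.

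In uterus, and by a few reads in testis, shorter fragments led. The 5 most abundant exact sequences of uterus were 20 to 24 nt long and all belonged to the set shared by Val-AAC and Val-CAC. The longest and the shortest of them are shown.
Val-AAC/CAC, bases 1 to 24: gtttccgtagtgtagtggttatca
Val-AAC/CAC, bases 1 to 20: gtttccgtagtgtagtggtt
The 24 nt fragment had 517 reads in sperm, against 43 in testis, where it led, and 42 in uterus. The 20 nt fragment had 212 reads in sperm, against 1 in testis and 57 in uterus, where it led. Among the others, the 23 nt fragment had 3639 reads in sperm, against 7 in testis and 46 in uterus, and the 22 nt fragment 342, 1 and 18. The 27 nt fragment, one of the 5 leading ones of testis, had 585 reads in sperm, against 13 in testis and 6 in uterus. The 24 nt and 20 nt fragments are the first bases of the longer Val-AAC/CAC fragments printed above.

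Exact 5′ reads of all tRNA-Val together came to 91270 in sperm, against 222 in testis and 259 in uterus. Per 1000000 reads of the library (RPM) these were 5817 in sperm (5779 to 5855), 9.33 in testis (8.15 to 10.6) and 16.3 in uterus (14.4 to 18.4). The ratio was 623 for sperm over testis (546 to 714) and 357 for sperm over uterus (316 to 404). Testis stood below uterus, at a ratio of 0.572 (0.476 to 0.687), but at 1.10 (0.854 to 1.41) when the count was limited to reads of 18 to 28 nt in both libraries. Per 1000000 microRNA reads, which were 0.692% of the testis and 69.7% of the uterus library, it was 57.6 (47.9 to 69.2), and sperm over uterus was 10249 (9072 to 11623). In the range of 18 to 28 nt the ratio of sperm was 212 over testis (172 to 266) and 234 over uterus (207 to 266). All libraries held the fragments, and their level in sperm exceeded that in either tissue at every setting tried.

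The families contributed unequally. Reads shared by Val-AAC and Val-CAC had 3200 RPM in sperm, against 7.11 in testis and 13.5 in uterus. Reads specific to Val-CAC, with C at base 34, had 2055 RPM in sperm and 1.26 in testis (30 reads), and 0 reads in uterus. Their ratio was 1629 for sperm over testis (1141 to 2415), and sperm was at least 10876-fold higher than uterus against a floor of 3 reads in that library. Such reads are about 34 nt long, and reads of 34 nt or more of any kind were 20.2% of the sperm library and 0.00179% of the uterus library, so the bound cannot be told apart from the length range of the libraries. Val-TAC reads had 558 RPM in sperm (547 to 570), 0.883 in testis (0.547 to 1.35) and 2.83 in uterus (2.07 to 3.79). The Val-TAC ratio was 632 over testis (413 to 1022) and 197 over uterus (147 to 270). Val-TAC gave 9.60% of the exact reads in sperm, against 9.46% in testis and 17.4% in uterus.

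Reads with an unaltered A at base 34, the letter of the Val-AAC genes, were almost absent. They numbered 52 in sperm, against 2 in testis and 0 in uterus, or 3.31 RPM in sperm (2.48 to 4.35). Reads with T there, which neither gene has, numbered 62 in sperm and 2 in testis. In sperm, 48 reads with A and 48 with T ended at base 34 itself. Whether the reads with A came from Val-AAC genes was not tested. The Val-AAC reference used here differs from Val-CAC at base 34 alone, by the way it was made. Exact Val-AAC reads could otherwise be counted only within the shared set. Reads with G at base 34, 12582 in sperm, were counted as altered and are given further on. RefSeq lists 0 genes for Val-GAC, and whether the reads with G came from Val-AAC genes was not tested. Whether Val-AAC gene copies differ before base 34 was not tested.

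**Figure D1:**
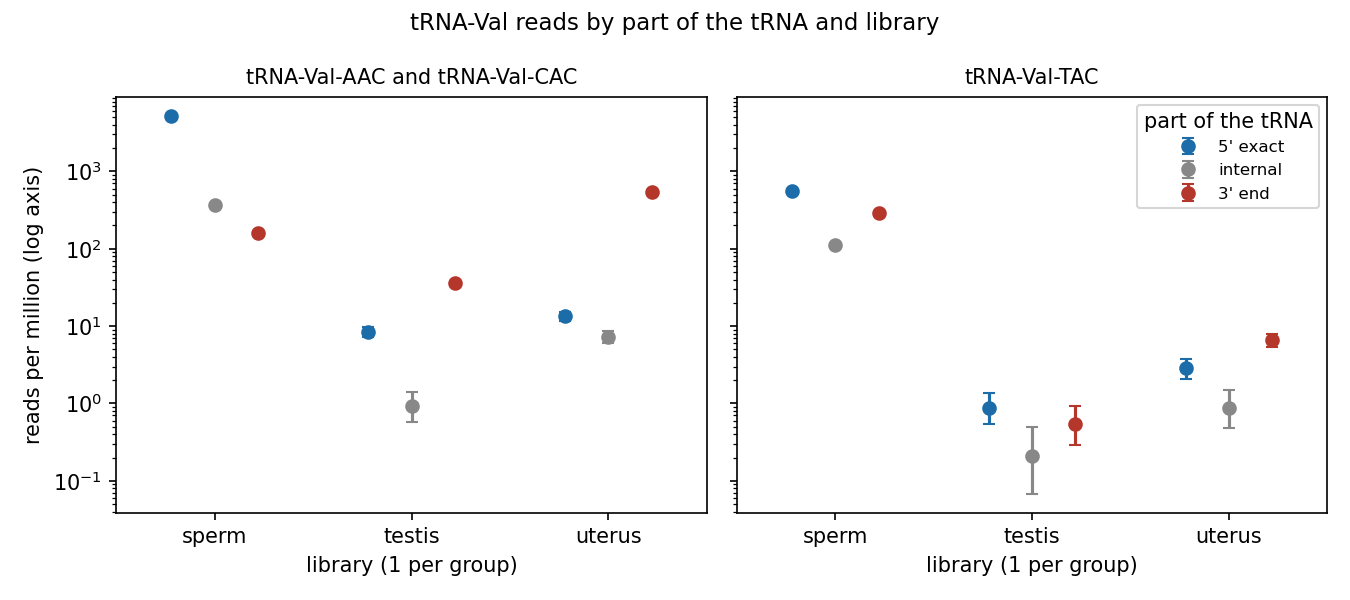
Reads per 1000000 library reads on a log axis for exact 5′ reads, internal reads and 3′ end reads of tRNA-Val-AAC and tRNA-Val-CAC together (left) and tRNA-Val-TAC (right) in the 3 libraries. Points are single libraries, and bars are 95% Poisson intervals. In sperm the 5′ reads stand highest in both panels, and in testis and uterus the 3′ end reads stand above the 5′ reads for tRNA-Val-AAC and tRNA-Val-CAC.

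Exact 5′ sequences whose higher library held 100 reads or more numbered 41, and all 41 reached that number only in sperm. Their counts below were therefore nearly fixed by this minimum and are given as a description. In sperm 41 of these were at least 4-fold above testis, which 16.7% of all 31802 sequences tested were. Against uterus 40 of 41 passed, which 44.6% of 13712 sequences did, and the exception was the 20 nt fragment at 13.5 RPM in sperm and 3.59 in uterus. With a 2-fold limit 41 of 41 passed against testis (17.4% of all sequences) and 41 of 41 against uterus (45.4%). With a minimum of 20 reads 55 of 55 passed against testis (16.5%) and 53 of 55 against uterus (54.4%). These sequences overlap one another and are not independent, and nothing is read from the shares.

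Among the exact 5′ reads, which by the rule start at base 1 to 3, most began at base 1 in every library. Reads beginning at base 1 were 98.3% of exact reads in sperm, against 99.1% in testis and 97.7% in uterus. Reads that began at base 4 or later are left out of these shares. The Val-CAC fragment of bases 4 to 34, for example, had 254 reads in sperm. Sperm had 1175 reads from base 2 and 413 from base 3.

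The 3′ ends lay next to the anticodon in sperm. For Val-AAC and Val-CAC together, 34.5% of sperm reads ended at base 34 and 33.1% at base 33, the last base before the anticodon. Base 31 held 7.59% of the ends, base 32 7.30% and base 23 4.43%. Sperm Val-TAC reads ended at base 34 in 52.9% of cases, but at base 33 in only 5.23%, and at bases 18 and 19 in 4.02% and 4.69%. Both families thus ended most often at the first anticodon base, while the neighbouring end at base 33 was far less frequent for Val-TAC. Reads with G at base 34 are not among these exact reads and are given further on.

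In testis the ends were spread more widely. Of 201 testis reads of Val-AAC and Val-CAC, 43 ended at base 24, 40 at base 33, 30 at base 34 and 29 at base 32. Of 21 testis Val-TAC reads, 8 ended at base 30 and 2 at base 34. Ends at base 33 or 34 made up 66.7% of all exact tRNA-Val 5′ reads in sperm (66.4 to 67.0) and 32.9% in testis (26.7 to 39.5). In uterus they were 0 of 259 reads, with an upper limit of 1.41%. Uterus reads ended between bases 18 and 29, and 58 of 214 Val-AAC and Val-CAC reads ended at base 20, their most frequent end. Of 45 uterus Val-TAC reads, 12 ended at base 20, 12 at base 21 and 11 at base 19. Reads of 34 nt or more of any kind were 0.00179% of the uterus library, and the part of this in the missing ends was not tested.

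**Figure D2:**
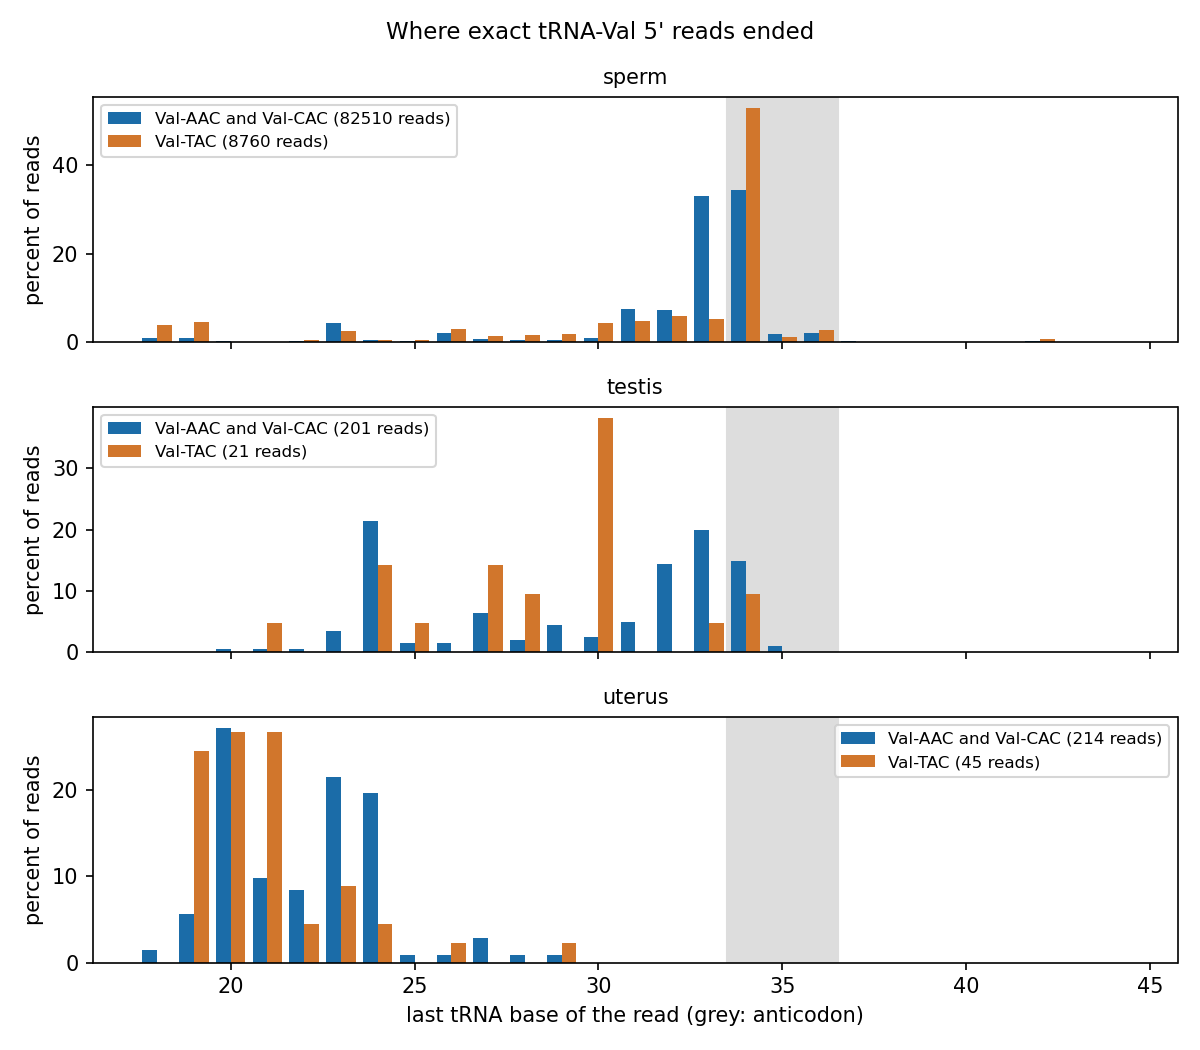
Percent of exact 5′ reads ending at each tRNA base, for tRNA-Val-AAC and tRNA-Val-CAC together (blue) and tRNA-Val-TAC (orange) in sperm, testis and uterus; grey marks the anticodon. Sperm reads pile up at bases 33 and 34, testis reads at bases 24, 30 and 32 to 34, and uterus reads between bases 19 and 24.

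G at base 34 was the most frequent altered base in sperm. The leading fragments with it are shown with G in capitals.
G at 34, bases 1 to 36: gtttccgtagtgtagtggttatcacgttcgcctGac
G at 34, bases 1 to 35: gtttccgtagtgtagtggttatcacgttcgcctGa
G at 34, bases 1 to 34: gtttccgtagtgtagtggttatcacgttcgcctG
They had 6695, 2764 and 2318 reads in sperm, 2, 0 and 9 in testis and none in uterus. Of 44944 sperm 5′ reads of Val-AAC and Val-CAC that covered base 34 with no other change, 12582 had G (27.99%, 27.6 to 28.4), 32248 had C (71.8%), 52 had A and 62 had T. G was thus 203 times as frequent as T, which neither gene has there. In testis 11 of 45 such reads had G and 30 had C. In Val-TAC, with T at base 34, only 2 of 5528 sperm reads were altered there (0.0362%). G at base 34 had 802 RPM in sperm (788 to 816) and 0.463 in testis (0.231 to 0.828), a ratio of 1734 (969 to 3474). No uterus 5′ read reached base 34.

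Reads with G at base 34 ended farther on than reads with C. Of the 12582 sperm reads with G, 53.7% ended at base 36 (52.8 to 54.6), 22.2% at base 35 and 18.8% at base 34. Of the 32248 with C, 88.2% ended at base 34 (87.8 to 88.5), 4.75% at base 35 and 5.16% at base 36. The intervals did not overlap at any of the 3 ends. Among reads ending at base 35 or later, G made up 72.7% of 14058 and C 27.2%. The share of G therefore depended on where the reads ended.

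**Figure D3:**
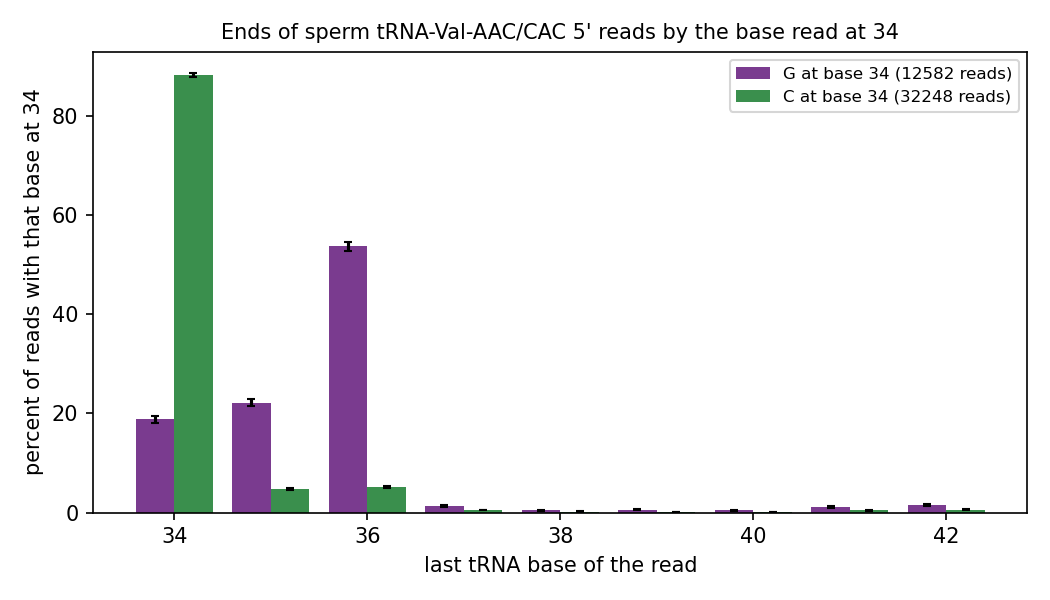
Percent of sperm 5′ reads of tRNA-Val-AAC and tRNA-Val-CAC ending at each base from 34 to 42, separately for reads with G (purple) and C (green) at base 34; bars are 95% exact binomial intervals. Reads with C end mainly at base 34 (88.2%), and reads with G mainly at base 36 (53.7%).

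Reads that began at base 4 or later give a second view of base 34, which the choice of 5′ reads did not use. In sperm 1235 of 3707 such reads had G (33.3%, 31.8 to 34.9) and 2422 had C. In testis 7 of 15 had G and 8 had C. In uterus 52 of 82 had G (63.4%, 52.0 to 73.8), 29 had C and 1 had A. G was present at base 34 of such reads in all 3 libraries, and A in at most 1 read of each.

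Altered reads of any kind were 19.9% of the 113891 exact and altered 5′ reads in sperm (19.6 to 20.1), 21.6% of 283 in testis (16.9 to 26.8) and 12.2% of 295 in uterus (8.70 to 16.5). Sperm had 21893 reads with a substitution and 728 with a deletion, testis 58 and 3, and uterus 34 and 2. Without base 34, substituted reads were 8.12% in sperm, 15.9% in testis and 11.5% in uterus. The part of sequencing and PCR error in these shares was not tested.

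Positions differed widely in sperm. Reads with G at base 34 and a second change are outside the rule, which lowers the shares at other positions of Val-AAC and Val-CAC. Over the 38 positions of Val-AAC and Val-CAC with at least 1000 reads, the median substituted share was 0.0920%. Apart from base 34, base 26 had 2.77% (2694 of 97139 reads), base 7 2.00% (2095 of 104493), base 37 0.770% (11 of 1428) and base 35 0.499% (73 of 14636). In Val-TAC, with a median of 0.0745% over 34 positions, base 26 had 2.19% (180 of 8210), base 16 0.681% (64 of 9398), base 31 0.427% (30 of 7021) and base 11 0.383% (36 of 9398). Base 26 stood out in both families. Base 7 did so only where it is a G: Val-TAC, with A there, had 13 of 9398 reads altered (0.138%).

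**Figure D4:**
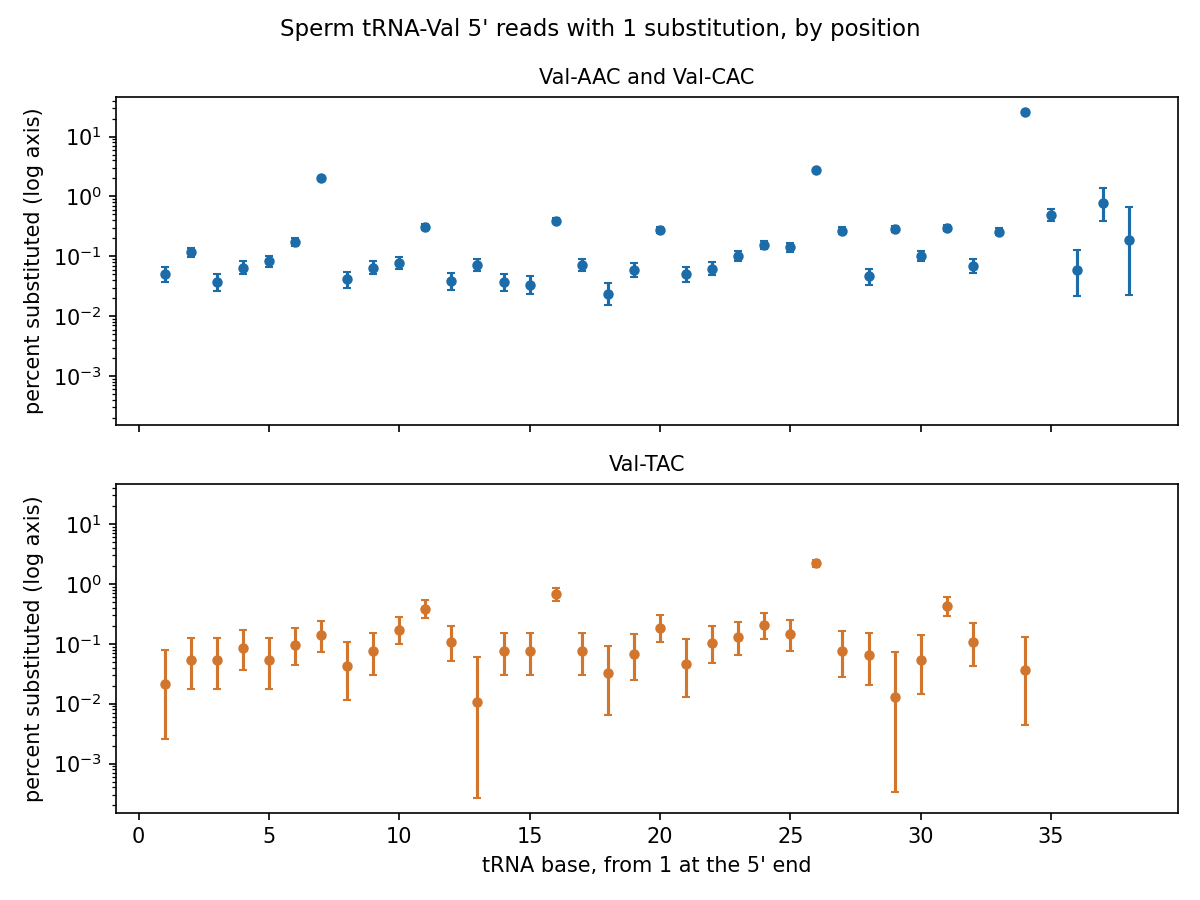
Percent of sperm 5′ reads with a substitution at each tRNA base, on a log axis, for tRNA-Val-AAC and tRNA-Val-CAC (top) and tRNA-Val-TAC (bottom); positions with fewer than 1000 reads or no altered read are left out and bars are 95% exact binomial intervals. Base 34 (25.9%), base 26 and base 7 stand above the rest in the upper panel, and base 26 in the lower.

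Base 26 of Val-AAC and Val-CAC was altered in all libraries, most often to A in sperm and uterus and to T in testis. The leading fragments with it altered are shown with the altered base in capitals.
G26A, bases 1 to 34: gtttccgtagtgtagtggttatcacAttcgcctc
G26A, bases 1 to 26: gtttccgtagtgtagtggttatcacA
G26T, bases 1 to 28: gtttccgtagtgtagtggttatcacTtt
They had 547, 111 and 6 reads in sperm, 3, 0 and 4 in testis and 0, 3 and 0 in uterus. In Val-AAC and Val-CAC, sperm had 1700 reads with G26A, 576 with G26T and 418 with G26C. Testis had 18 reads with G26T, 7 with G26A and 0 with G26C, and uterus 8 with G26A and 0 with G26T or G26C. Val-TAC in sperm had 134 reads with G26A, 16 with G26T and 30 with G26C. G26A was thus the most frequent change at this base in sperm, and G26T in testis. One of the 3 leading altered sequences of uterus had C6T instead, at bases 1 to 23, and had 22 reads in sperm, against 0 in testis and 4 in uterus.

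The share altered at base 26 in Val-AAC and Val-CAC was 2.77% in sperm (2.67 to 2.88), 12.9% in testis (25 of 194, 8.52 to 18.4) and 36.4% in uterus (8 of 22, 17.2 to 59.3). In sperm it was higher among reads that ended at it or just past it. For reads ending at bases 26 to 29, it was 6.75% in sperm (246 of 3642, 5.96 to 7.62), 23.3% in testis (10 of 43, 11.8 to 38.6) and 36.4% in uterus (8 of 22). For reads ending at base 30 or later it was 2.62% in sperm (2.52 to 2.72) and 9.93% in testis (15 of 151, 5.67 to 15.9). In both ranges of ends sperm stood below testis, with intervals that did not overlap. The ends were not alike within bases 26 to 29. In sperm 1663 exact reads ended at base 26 and 590 at base 27, against 3 and 13 in testis. The G26A fragment of bases 1 to 26 had 111 reads in sperm and 3 in uterus, and that of bases 1 to 27 had 20 and 3. There the altered base is the last of the read or the one before it. The part of changes at read ends in these shares was not tested.

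Bases 7 and 26 could also be read beside base 34 in the same sperm read. Base 26 was altered in 762 of 14116 sperm reads with G at base 34 (5.40%, 5.03 to 5.78), and in 1067 of 35301 with C there (3.02%, 2.85 to 3.21). Base 7 was altered in 316 of 14116 reads with G (2.24%, 2.00 to 2.496) and in 864 of 35301 with C (2.45%, 2.29 to 2.61). The share at base 26 was higher in reads with G, and the intervals at base 7 overlapped. At base 7 the letters in sperm were 1369 reads of G7A, 491 of G7T and 235 of G7C, and A is the letter that Val-TAC has at this base. Of Val-AAC and Val-CAC reads reaching base 27, 75.2% of exact, 71.3% of base 26 altered and 78.7% of base 7 altered reads ended at base 33 or 34.

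Deletions were rare. The leading deleted sequence of sperm lacked the G at base 26 of the Val-CAC fragment that ends at base 34 and had 75 reads, with 0 in testis and uterus. At base 26, 103 of 97139 sperm reads of Val-AAC and Val-CAC lacked the base (0.106%). In Val-TAC the most frequent single deletion was at base 17, in 57 of 9398 reads (0.607%).

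The rest of the tRNA gives the setting of the 5′ reads. Exact 3′ end reads, ending in the CCA that is added to every mature tRNA, were 2522 in sperm, against 862 in testis and 8632 in uterus, for Val-AAC and Val-CAC, with base 58 free to be any letter. Set against 82510, 201 and 214 exact 5′ reads, the 5′ to 3′ ratio was 32.7 in sperm (31.4 to 34.1), 0.233 in testis (0.199 to 0.272) and 0.0248 in uterus (0.0215 to 0.0284). For Val-TAC there were 4485, 13 and 105 such 3′ reads, with ratios of 1.95 (1.88 to 2.03), 1.62 (0.772 to 3.51) and 0.429 (0.295 to 0.613). The 5′ excess of sperm over the 3′ reads matched here was therefore much larger for Val-AAC and Val-CAC than for Val-TAC. The references were unlike: the Val-AAC and Val-CAC 3′ reads were matched to the n-TVcac9 gene alone, and the Val-TAC 3′ part came from sperm reads. How many 3′ reads of other gene copies were missed was not tested.

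The 3′ fragments differed in length between the families in sperm. The leading ones are shown with base 58 in capitals.
Val-AAC/CAC, bases 55 to 76: tcgAaaccgggcggaaacacca
Val-TAC, bases 37 to 76: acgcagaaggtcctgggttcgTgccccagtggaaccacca
The first had 558 reads in sperm, against 398 in testis and 2430 in uterus. The second, which begins at the base after the anticodon, had 251 reads in sperm and none in testis or uterus. Base 55 was the most frequent start of Val-AAC and Val-CAC 3′ reads, at 36.2% in sperm, 87.8% in testis and 90.3% in uterus. Val-TAC 3′ reads of sperm began most often at base 37 (1036 of 4485, 23.1%), and those of testis and uterus at base 55 (13 of 13 and 94 of 105).

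Sperm also held internal reads, and many of them began at base 31, a few bases before the main end of the 5′ reads. Of 5856 internal reads of Val-AAC and Val-CAC in sperm, 2843 began at base 31 (48.5%), and of 1747 of Val-TAC, 1336 did (76.5%). Testis had 22 and 5 internal reads of these families, and uterus 115 and 14. The leading ones of sperm are shown with base 34 and, for Val-TAC, base 58 in capitals.
Val-CAC, bases 31 to 53: cctCacacgcgaaaggtccccgg
Val with G at 34, bases 31 to 53: cctGacacgcgaaaggtccccgg
Val-TAC, bases 31 to 71: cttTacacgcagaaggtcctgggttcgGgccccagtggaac
They had 1202, 556 and 273 reads in sperm, 1, 1 and 0 in testis and 0 in uterus.

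Base 58 was read as a mixture of letters in all libraries. Val-AAC and Val-CAC 3′ reads had A, the gene's base, in 61.5% of 2472 sperm reads (59.5 to 63.4), 51.0% of 860 testis reads (47.6 to 54.4) and 30.9% of 8406 uterus reads (29.9 to 31.9). T made up 27.7%, 36.2% and 46.9% in sperm, testis and uterus, and G 10.4%, 11.2% and 19.1%. In Val-TAC, A had 41.7% of 4485 sperm reads, T 30.9% and G 27.2%, and in uterus 52.4%, 19.0% and 24.8% of 105. The share altered was thus lowest in sperm for Val-AAC and Val-CAC of the 3 libraries. For Val-TAC the interval for A in uterus (42.4 to 62.2) overlapped that in sperm (40.2 to 43.2).

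**Figure D5:**
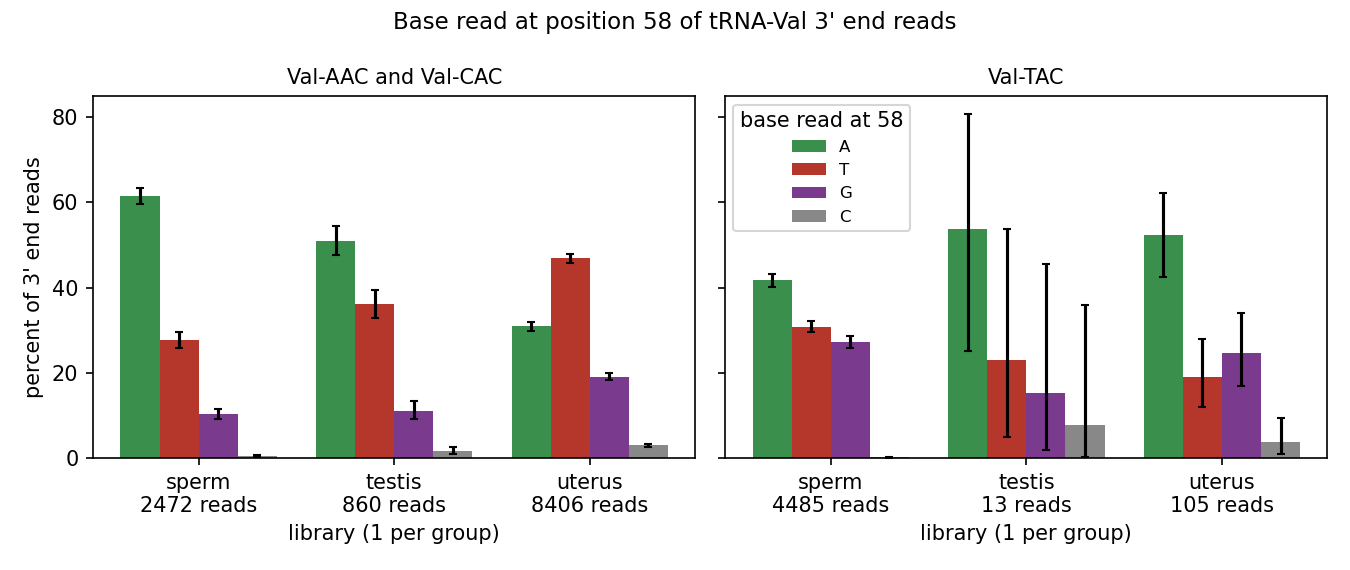
Percent of 3′ end reads with each letter at base 58 in the 3 libraries, for tRNA-Val-AAC and tRNA-Val-CAC (left) and tRNA-Val-TAC (right); bars are 95% exact binomial intervals and the number of reads stands under each library. A leads in sperm (61.5%) and T in uterus (46.9%) in the left panel.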

How the data were processed

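Each deposited table pairs every distinct read with a whole-number count, per the file headers, and the counts were not normalized as far as the values show. Per the labels, adapters were ligated to small RNA before RT-PCR. The submitters' processing notes name the build mm9. Trimming, size range and tools were not given in sources used here. 1 line without a sequence was left out in sperm and in testis.

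Members and lists were chosen with earlier results of these data known. The Val-CAC sequence came from a RefSeq promoter window of GRCm38.p6, and the 5′ part of Val-TAC and the form with G at base 34 from reads of at least 40 nt holding the anticodon. The plan took Val-AAC from reads with AAC, which found 0, so base 34 of the form with G was set to A. The Val-TAC 3′ part was assembled from sperm reads. Val-AAC and Val-CAC were treated as one 3′ sequence, that of n-TVcac9. Reads of 18 nt or more were matched exactly, then with 1 substitution, then with 1 deletion of 1 to 3 bases. Reads equal to the tRNA from base 4 or later were not counted as altered, a step added after the data were seen. Sequences named are the 5 leading exact and 3 leading altered ones per library, the leading one of each set, and positions altered at least 5 times as often as the median position in sperm, up to 6 per set. The leading 3′ and internal sequences were chosen after their values were seen, and some named sequences are given by length and value alone.

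RPM are counts per 1000000 reads. Intervals (95%) are exact Poisson for levels, Clopper-Pearson for shares and conditional binomial for ratios (Python 3.11.15, scipy 1.17.1). A floor of 3 counts stood for 0. No test was made, since each group had 1 library. Classification was run on simulated reads, with random sequences as negatives. The simulation did not cover the shortest reads or reads of other tRNAs, and nothing is concluded from it for those.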

Additional observations from a re-analysis of the deposited data

How the results depend on the processing

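Of 57 alternative values for 17 results, 28 stayed within the counting interval, 27 moved beyond it and 2 turned round. Testis over uterus turned to 1.10 with reads of 18 to 28 nt and to 57.6 per 1000000 microRNA reads. The interval of the former held 1 (0.854 to 1.41), so a turn was not shown there. With reads of 29 to 34 nt the ratio was 0.160 (0.0537 to 0.787), where uterus had only 3 reads. MicroRNA reads were 2.42% of the sperm library, 0.692% of testis and 69.7% of uterus. In the same 3 settings, sperm over testis was 212, 178 and 990, and sperm over uterus 234, 10249 and 159 (54.3 to 769 for the last). With altered reads added, levels were 7258 RPM in sperm, 11.9 in testis and 18.6 in uterus. The sperm level was 5716 RPM with starts at base 1 only and 6181 without sequences read once. As distinct sequences per 1000000 distinct, levels were 82.9, 10.8 and 47.5 in sperm, testis and uterus. Val-TAC in sperm was 8.25% with altered reads. It was 13.7% (5.88% in testis) among exact reads reaching base 34, which no uterus read did. That count leaves out the 12582 sperm reads with G at base 34, which were counted as altered. Ends at base 33 or 34 were 12.04% of distinct sequences in sperm and 17.9% in testis, and 39.7% of altered sperm reads. The altered share was 19.4%, 14.9% and 7.35% in sperm, testis and uterus without sequences read once, and 15.5%, 15.9% and 8.48% without changes in the last 2 bases. The causes were not tested. Depth limits the tissues: 222 testis and 259 uterus reads. No paired analysis was possible because each group had 1 library.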

Other observations

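Reads outside the 1-change limit held linked changes. Sperm had 1605 reads of at least 28 nt with T20C and T27C together, with at most 1 further change, against 7 in testis and 1 in uterus. T20C alone had 284 reads in sperm, of which 180 ended before base 27, and T27C alone had 237. A further 956 sperm reads carried C6T, T27C and G at base 34 together, against 0 in testis and uterus, while C6T alone had 159 reads in sperm. Whether gene copies carry these letters was not tested, since only 1 of the 22 gene sequences was used here.

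The mitochondrial tRNA-Val, mt-Tv, gave 18 exact 5′ reads in sperm (1.15 RPM, 0.680 to 1.81). It gave 0 in testis and uterus, with upper limits of 0.155 RPM in testis and 0.232 in uterus.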
